A study of Mus musculus with 24 samples.

Results

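The stromal cells of fat that can become adipocytes are recognised by proteins on their surface, and the RNA of 10 genes used as such markers was followed here: Pdgfra, Pdgfrb, Dpp4, Pi16, Cd34, Ly6a, Ly6c1, F3, Icam1 and Clec3b. The genes were chosen by symbol and matched to the Ensembl identifiers of the deposited tables. The rule is a list of names and uses no measured value, but the names were chosen with earlier results of these data known. All 10 were found among the 37310 genes measured. Of these genes, 14095 had at least 1 FPKM (fragments counted on a gene, scaled to its length in kilobases and to the depth of the library) in at least 2 of 16 libraries and were tested, among them 9 of the 10 markers. Dpp4 did not reach this level, with at most 0.953 FPKM in a library. Clec3b encodes tetranectin, a secreted protein, and is counted among the markers because it is enriched in fibroblast-like progenitors.

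The stromal vascular fraction, the mixture of cells left when fat is digested and the adipocytes are removed, was prepared from C57BL/6 mice aged 6 weeks, from the white fat of the groin (inguinal, WAT) and from the brown fat between the shoulder blades (interscapular, BAT). The cells were grown in culture and induced to become adipocytes with insulin, dexamethasone and 3-isobutyl-methylxanthine until day 4, and then with insulin and T3 until day 8. The medium held either EGCG (epigallocatechin gallate), the main catechin of green tea, or the solvent DMSO, and RNA was taken at days 4 and 8. This gave 8 groups: WAT day 4 control, WAT day 4 EGCG, WAT day 8 control, WAT day 8 EGCG, and the same 4 groups of BAT cells, with 3 libraries in each group. The labels name no genetic change in the mice. The dose of EGCG, the number of mice behind a culture and whether the replicates of a group were separate isolations are not given in the sources used here, so p-values measure the spread between these libraries, which may be technical. Replicates 1 and 2 of all groups were deposited in 1 table and held 39452696 to 52893848 reads on genes, and replicate 3 was deposited in another table and held 16392420 to 41675643. Tests used replicates 1 and 2, and replicate 3 gave a value and a direction.

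The library of WAT day 8 EGCG replicate 3 stood apart: 61.0% of its reads fell on 5 genes, against 3.64% to 10.5% in the other libraries. Its FPKM values of all other genes are therefore lower than in replicates 1 and 2. They are given as deposited and also after rescaling to the reads on the other genes. The labels call the cells WAT or BAT preadipocytes, yet the summed level of 12 mature adipocyte genes was 3881 to 12257 FPKM in control libraries of replicates 1 and 2 and 503 to 1696 FPKM in EGCG libraries. Genes of other cell types were also present. The 10 endothelial markers summed to 22.8 to 62.8 FPKM in replicates 1 and 2, with Pecam1 and Cdh5 at 4.71 FPKM or more in every group mean. Summed mural cell markers ranged from 94.5 to 923 FPKM, with Acta2 at 38.2 to 798 FPKM as the most abundant of them, and Rgs5, which marks pericytes, had 1.07 to 3.33 FPKM. Macrophage and leukocyte markers, mostly Lyz2, summed to 59.0 to 393 FPKM. Mesothelial markers summed to 0.6 to 29.2 FPKM, and Upk3b was at 0 in most groups. In RNA from a mixed culture, fewer cells of a type and less RNA per cell cannot be told apart.

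PDGFRA and PDGFRB are receptor tyrosine kinases for the platelet-derived growth factors. Fat progenitors are commonly isolated as PDGFRA-positive cells that also carry CD34 and LY6A, and PDGFRB is shared between these cells and the mural cells that wrap blood vessels. In mouse subcutaneous fat, DPP4 and PI16 mark interstitial progenitors that lie farthest from the adipocyte state, ICAM1 marks committed preadipocytes, and F3 (tissue factor, also known as CD142) has been used to mark a stromal population that restrains adipogenesis.

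The levels of the markers differed widely between genes. On the FPKM scale, which corrects for gene length, Ly6a and F3 ranked highest, with Ly6a in rank 35 of the tested genes in WAT day 8 controls (944 ± 134 FPKM, SD, n = 2) and F3 in rank 49 in BAT day 8 EGCG cells (636 ± 2.98 FPKM). Pdgfra and Pdgfrb lay between the percentiles 92.4 and 98.4 of the tested genes in every group. Icam1 lay between the percentiles 35.9 and 82.2, while Pi16 and Cd34 were low genes in BAT cells, at percentiles 3.11 to 27.6. From the lowest to the highest group mean, Pdgfra changed by 2.87-fold and Pdgfrb by 3.53-fold, Icam1 by 6.64-fold, F3 by 7.67-fold, Ly6a by 9.33-fold, Cd34 by 17.9-fold, Pi16 by 33.3-fold, Ly6c1 by 37.2-fold and Clec3b by 669-fold. The lowest Clec3b group, BAT day 4 EGCG, rested on 10 reads in each of replicates 1 and 2, and with replicate 3 included the range of Clec3b was 437-fold. Dpp4, which was not tested, had a range of 415-fold, or 601-fold with replicate 3 included. Its lowest group, BAT day 4 control, held 1 read in replicates 1 and 2 together.

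**Figure D1:**
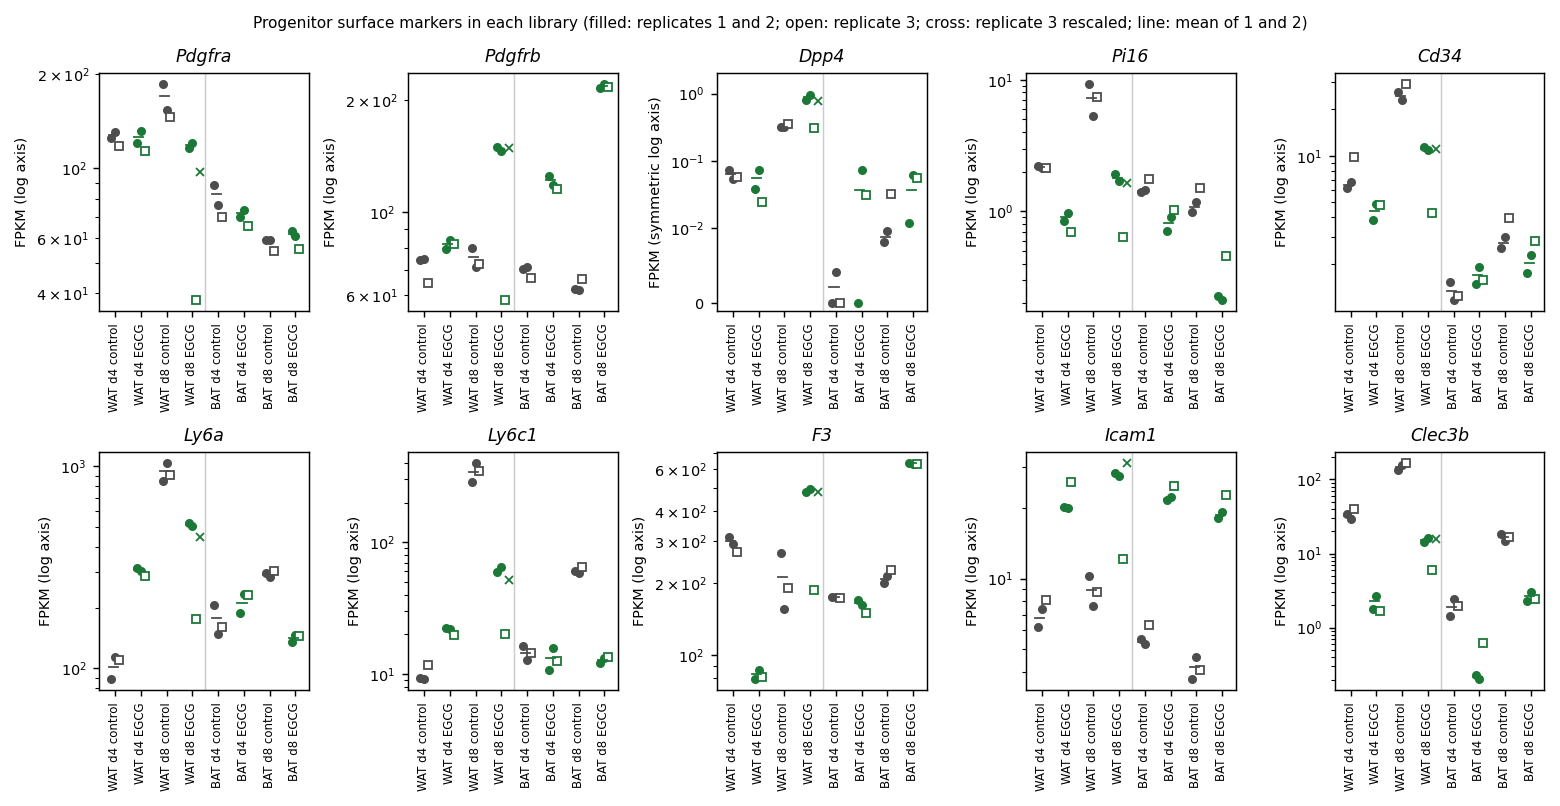
FPKM of each of the 10 markers in the 24 libraries, on a log axis (symmetric log for Dpp4), by group of depot, day (d4, d8) and treatment (grey control, green EGCG); filled points are replicates 1 and 2, open points replicate 3, crosses the rescaled replicate 3 of WAT day 8 EGCG, and lines the mean of replicates 1 and 2. Pdgfrb and Icam1 were highest in EGCG groups, and Ly6a, Ly6c1, Cd34, Pi16 and Clec3b were highest in WAT day 8 controls.

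Among the receptors, Pdgfra (ENSMUSG00000029231.9, chr5:75548316-75594229, plus strand, build NCBIM37) followed the depot. In WAT controls it had 125, 130.3 and 117 FPKM in replicates 1, 2 and 3 on day 4, and 186, 154 and 146 FPKM on day 8. BAT controls had 88.8, 76.5 and 70.0 FPKM on day 4 and 59.3, 59.2 and 54.4 FPKM on day 8. The WAT and BAT libraries did not overlap on either day. The difference was tested with limma on log2(FPKM + 1), the scale of all log2 changes given here. Pdgfra was lower in BAT than in WAT controls on day 4 (log2 difference -0.63 ± 0.0855 SE, adjusted p = 9.42e-05) and on day 8 (-1.50 ± 0.0855, adjusted p = 8.34e-08). It rose from day 4 to day 8 in WAT controls (0.40 ± 0.0855, adjusted p = 0.0016) and fell in BAT controls (-0.47 ± 0.0855, adjusted p = 0.000404).

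With EGCG, Pdgfra had 121, 131 and 113 FPKM in WAT cells on day 4, and these values overlapped with the controls (log2 change -0.02 ± 0.0855, adjusted p = 0.853). On day 8 it had 116, 121 and 38.1 FPKM, where the last value is the library that stood apart and becomes 97.7 FPKM after rescaling. Here the EGCG libraries were all below the controls (-0.51 ± 0.0855, adjusted p = 0.000257). BAT cells with EGCG had 70.0, 73.9 and 65.7 FPKM on day 4 and 63.1, 60.8 and 55.3 FPKM on day 8. Neither BAT comparison passed the test (adjusted p = 0.0817 and 0.52). The effect of EGCG on day 8 differed between the depots by 0.57 ± 0.121 on the log2 scale (adjusted p = 0.00301).

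Pdgfrb (ENSMUSG00000024620.5, chr18:61204804-61244715, plus strand) followed the treatment. The controls were close to each other, from 61.8 to 80.0 FPKM over all 12 libraries. In WAT cells with EGCG, Pdgfrb had 79.7, 84.4 and 82.3 FPKM on day 4. On day 8 it had 149.8, 146 and 58.2 FPKM, the last of which becomes 149 FPKM after rescaling. BAT cells with EGCG had 125, 119 and 116 FPKM on day 4 and 216, 221 and 218 FPKM on day 8. The EGCG libraries of BAT cells were thus all above the controls, by 1.72-fold on day 4 and 3.53-fold on day 8. The log2 change was 0.77 ± 0.0516 on day 4 (adjusted p = 2.77e-07) and 1.80 ± 0.0516 on day 8 (adjusted p = 6.72e-11) in BAT cells, and 0.96 ± 0.0516 on day 8 in WAT cells (adjusted p = 2.69e-08). In WAT cells on day 4 the change of 0.13 ± 0.0516 did not pass the test (adjusted p = 0.0518), although the 3 EGCG libraries were above the 3 controls of that day. The effect of EGCG was larger in BAT than in WAT cells on day 4 (by 0.64 ± 0.073, adjusted p = 8.74e-05) and on day 8 (by 0.84 ± 0.073, adjusted p = 6.82e-06). Summed mural cell markers were also higher in the BAT cells with EGCG. They were 97.5 to 114 FPKM in day 4 controls against 415 to 503 FPKM, and 282 to 327 FPKM in day 8 controls against 834 to 923 FPKM. In WAT cells the sum was lower with EGCG on day 4 (125 to 140 FPKM in controls against 94.5 to 98.8 FPKM) and higher on day 8 (206 to 282 FPKM against 365 to 378 FPKM). Single markers did not move together. Notch3, a receptor of mural cells, rose in all 4 comparisons, by 0.96 ± 0.0684 to 1.68 ± 0.0684 on the log2 scale. Kcnj8 and Abcc9, which form a potassium channel of pericytes, fell in BAT cells on day 4 (-0.87 ± 0.202, adjusted p = 0.00376, and -1.24 ± 0.174, adjusted p = 0.000106). In BAT cells most of the sum was Acta2, a smooth muscle actin, while Rgs5 had 3.33 and 2.72 FPKM on day 4 and 3.03 and 1.60 FPKM on day 8 in control and EGCG cells. Their part in the Pdgfrb result was not tested.

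The PDGF ligands were read beside their receptors. All 4 ligand genes passed the filter, and all 4 rose from day 4 to day 8 in the controls of both depots. The shares of all tested genes called higher there were 27.7% in WAT and 28.7% in BAT controls. The ligands' median log2 change was 0.76 in WAT and 0.89 in BAT cells, against -0.03 and -0.10 for all tested genes. With EGCG, 2 rose in WAT cells on day 4, 2 rose and 1 fell in WAT cells on day 8, 3 rose in BAT cells on day 4 and 2 rose in BAT cells on day 8. Of all tested genes, 34.4%, 44.7%, 27.9% and 46.5% were called higher in these comparisons, and 18.9% were called lower in WAT cells on day 8. The ligands' median log2 changes were 0.28, 0.33, 0.77 and 0.60, against 0.09, 0.17, 0.03 and 0.17 for all tested genes. Pdgfa, the ligand of PDGFRA homodimers, rose in each of these comparisons. It had 10.4 ± 0.508 FPKM in BAT day 8 controls and 34.7 ± 0.427 FPKM with EGCG (SD, n = 2; log2 change 1.64 ± 0.0786 SE, adjusted p = 3.80e-09). In WAT cells on day 8 it had 6.79 ± 0.565 and 15.9 ± 0.397 FPKM (1.12 ± 0.0786, adjusted p = 2.28e-07).

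Dpp4 (ENSMUSG00000035000.8, chr2:62168130-62250288, minus strand), which encodes a membrane peptidase, had few reads. It lies across Gm13561 on the opposite strand, and whether counting used the strand is not stated. WAT cells gave 20, 12 and 5 reads in day 4 controls and 9, 18 and 3 reads with EGCG. On day 8 the WAT controls gave 84, 67 and 31 reads, or 0.321, 0.317 and 0.355 FPKM, and the EGCG cells gave 219, 200 and 67 reads, or 0.799, 0.953 and 0.305 FPKM, the last of which becomes 0.783 FPKM after rescaling. In the 12 BAT libraries the counts ran from 0 to 19 reads, with 0, 1 and 0 reads in day 4 controls. The reads thus lay mostly in WAT cells on day 8, while BAT libraries lay near the floor of 3 reads. When the filter on low values was dropped, Dpp4 was higher with EGCG in WAT cells on day 8 (log2 change 0.51 ± 0.0436, adjusted p = 8.63e-06) and higher on day 8 than on day 4 in WAT controls (0.31 ± 0.0436, adjusted p = 0.000287). On the recovered reads, with voom, the same changes were 1.43 ± 0.36 (adjusted p = 0.00333) and 2.30 ± 0.656 (adjusted p = 0.00852). In BAT cells neither method called Dpp4 for EGCG or for day.

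Pi16 (ENSMUSG00000024011.9, chr17:29455822-29466358, plus strand), a peptidase inhibitor that marks interstitial fibroblasts, was lower with EGCG. WAT controls had 2.23, 2.13 and 2.12 FPKM on day 4 and 9.27, 5.34 and 7.41 FPKM on day 8. With EGCG the WAT cells had 0.843, 0.966 and 0.698 FPKM on day 4 and 1.92, 1.69 and 0.638 FPKM on day 8, the last of which becomes 1.64 FPKM after rescaling. The groups did not overlap on either day. The log2 change with EGCG was -0.74 ± 0.169 on day 4 (adjusted p = 0.00318) and -1.53 ± 0.169 on day 8 (adjusted p = 9.39e-06). In BAT cells, controls had 1.40, 1.46 and 1.77 FPKM on day 4 and 0.983, 1.17 and 1.51 FPKM on day 8. With EGCG they had 0.707, 0.913 and 1.01 FPKM on day 4 and 0.226, 0.213 and 0.454 FPKM on day 8. These groups did not overlap either, but the change passed the test on day 8 (-0.77 ± 0.169, adjusted p = 0.00148) and not on day 4 (-0.43 ± 0.169, adjusted p = 0.0559). The day 4 change passed with a pseudocount of 0.1 (adjusted p = 0.0151), with quantile normalization (adjusted p = 0.0476) and in a fit of these groups alone (adjusted p = 0.0226). From day 4 to day 8, Pi16 rose in WAT controls by 1.34 ± 0.169 on the log2 scale (adjusted p = 2.95e-05), and no change was called in BAT controls (adjusted p = 0.248). The EGCG effect on day 8 differed between depots (BAT minus WAT 0.76 ± 0.24, adjusted p = 0.0258), a difference that turned to -0.28 with voom on the recovered reads.

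Cd34 (ENSMUSG00000016494.3, chr1:196765015-196787486, plus strand), a sialomucin of progenitor and endothelial cells, was mainly a WAT gene. It overlaps the antisense Gm16897, so reads of that stretch cannot be assigned with certainty. WAT controls had 6.17, 6.74 and 9.75 FPKM on day 4 and 25.6, 22.8 and 29.0 FPKM on day 8, while BAT controls had 1.53, 1.18 and 1.25 FPKM and then 2.53, 2.99 and 3.95 FPKM. The depots did not overlap on either day, and Cd34 was 8.77-fold higher in WAT than in BAT controls on day 8 (log2 difference, BAT minus WAT, -2.74 ± 0.128, adjusted p = 1.87e-08). It rose with time in the controls of WAT (1.75 ± 0.128, adjusted p = 3.35e-07) and BAT (0.68 ± 0.128, adjusted p = 0.00054). Cells with EGCG had 3.85, 4.90 and 4.82 FPKM (WAT, day 4), 11.4, 10.9 and 4.28 FPKM (WAT, day 8, with 11.0 FPKM for the last after rescaling), 1.49, 1.92 and 1.58 FPKM (BAT, day 4) and 1.76, 2.31 and 2.83 FPKM (BAT, day 8). Cd34 was lower with EGCG in WAT cells on day 4 (-0.48 ± 0.128, adjusted p = 0.00799) and day 8 (-1.05 ± 0.128, adjusted p = 1.96e-05). The day 4 call was lost without control replicate 2 (adjusted p = 0.0541) and without EGCG replicate 1 (adjusted p = 0.0848). In BAT cells on day 8 the change of -0.31 ± 0.128 lay at the threshold (adjusted p = 0.0449), the 3 libraries of each group overlapped, and the call was lost without control replicate 2 (adjusted p = 0.232) and without EGCG replicate 1 (adjusted p = 0.306). Endothelial cells also carry Cd34, and the sum of their markers moved the other way in WAT cells: 29.3 to 30.0 FPKM in day 4 controls against 62.1 to 62.8 FPKM with EGCG, and 34.3 to 37.6 FPKM against 42.1 to 45.3 FPKM on day 8. Single markers of that list did not all follow the sum on day 8, when 4 of 10 were called higher, against 44.7% of all tested genes. Cldn5 fell from 2.77 ± 0.273 to 1.43 ± 0.137 FPKM (adjusted p = 9.58e-05). The part of endothelial cells in the Cd34 result was not tested.

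Ly6a (ENSMUSG00000075602.4, chr15:74825308-74828064, minus strand), which encodes the stem cell antigen of mouse progenitors, and Ly6c1 (ENSMUSG00000079018.3, chr15:74875447-74879260, minus strand) encode small proteins anchored to the membrane by a lipid, and they belong to 1 gene cluster. Ly6c1 has a near copy, Ly6c2. Their coding sequences are 396 bases each and differ at 9 of them (97.7% identity), and 31.9% of the 50-base windows of the Ly6c1 transcript also occur in Ly6c2, against 0% in Ly6a. The first 150 coding bases of both genes, from the NCBIM37 transcripts, are shown because reads can be told apart only at such positions. Capitals mark the 6 bases that differ.
Ly6c1: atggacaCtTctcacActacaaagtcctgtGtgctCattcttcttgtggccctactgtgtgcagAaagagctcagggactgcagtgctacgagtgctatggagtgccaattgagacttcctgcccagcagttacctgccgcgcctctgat
Ly6c2: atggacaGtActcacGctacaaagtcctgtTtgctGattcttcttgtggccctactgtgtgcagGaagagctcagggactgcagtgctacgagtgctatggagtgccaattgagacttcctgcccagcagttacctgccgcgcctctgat
Ly6c2 was given 0 to 32 reads in the 24 libraries, where Ly6c1 was given 160 to 13466. How reads that fit both genes were counted is not stated, so the Ly6c1 values may hold reads of Ly6c2 or lack reads shared by both.

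Ly6a and Ly6c1 reversed their response to EGCG between day 4 and day 8 in WAT cells. On day 4, Ly6a had 88.9, 113 and 111 FPKM in controls and 315, 302 and 286 FPKM with EGCG, a rise of 1.61 ± 0.16 on the log2 scale (adjusted p = 6.61e-06). On day 8 it had 849, 1039 and 911 FPKM in controls and 523, 506 and 175 FPKM with EGCG, where the last value becomes 449 FPKM after rescaling. It was thus lower with EGCG on that day, by -0.87 ± 0.16 (adjusted p = 0.000507). Ly6c1 went the same way. It had 9.26, 9.19 and 11.6 FPKM in day 4 controls and 22.1, 21.8 and 19.6 FPKM with EGCG (1.17 ± 0.17, adjusted p = 0.000135). On day 8 it had 286, 399 and 347 FPKM in controls and 58.9, 64.9 and 20.1 FPKM with EGCG (51.6 FPKM for the last after rescaling; -2.43 ± 0.17, adjusted p = 2.14e-07). Neither gene overlapped between treatments on either day. The EGCG effect on day 8 minus that on day 4 was -2.48 ± 0.226 for Ly6a (adjusted p = 6.63e-06) and -3.60 ± 0.24 for Ly6c1 (adjusted p = 7.50e-07).

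In BAT cells the early rise was not seen. On day 4, Ly6a had 207, 149 and 161 FPKM in controls and 187, 235 and 232 FPKM with EGCG, and Ly6c1 had 16.2, 12.8 and 14.3 FPKM and 10.7, 15.7 and 12.5 FPKM. Both pairs of groups overlapped and passed no test (adjusted p = 0.213 and 0.536). On day 8 the controls had 297, 282 and 302 FPKM of Ly6a against 135, 146 and 144 FPKM with EGCG, and 60.1, 58.8 and 64.5 FPKM of Ly6c1 against 12, 13.3 and 13.4 FPKM. Both genes were lower with EGCG, Ly6a by 2.06-fold (log2 change -1.03 ± 0.16, adjusted p = 9.36e-05) and Ly6c1 by 4.69-fold (-2.15 ± 0.17, adjusted p = 2.82e-07). The depots differed in their response on day 4, by -1.35 ± 0.226 for Ly6a (adjusted p = 0.0012) and -1.31 ± 0.24 for Ly6c1 (adjusted p = 0.00224). On day 8 no difference between depots was called for either (adjusted p = 0.596 and 0.381).

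Of 10 relatives of the Ly6 family, 4 passed the filter. Ly6e, the most abundant, was lower with EGCG in all 4 comparisons, from -0.31 ± 0.102 in WAT cells on day 4 (adjusted p = 0.0224) to -2.18 ± 0.102 in WAT cells on day 8, when it fell from 317 ± 20.7 to 69.1 ± 4.02 FPKM (adjusted p = 9.06e-09). Lynx1, a modulator of nicotinic receptors, was higher in all 4, by 0.53 ± 0.0559 to 0.94 ± 0.0559 on the log2 scale. Ly6g, a marker of neutrophils, was at 0 FPKM in most groups.

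F3 (ENSMUSG00000028128.8, chr3:121426455-121437970, plus strand), which starts blood coagulation as tissue factor, and Icam1 (ENSMUSG00000037405.7, chr9:20820404-20833241, plus strand), an adhesion molecule bound by leukocyte integrins, were the markers of the committed and regulatory stromal cells that rose with EGCG on day 8. Icam1 overlaps Mir1900 on the opposite strand. The 250 bases before the RefSeq start sites of these genes (build GRCm38.p6, F3 at chr3:121723287-121723536 and Icam1 at chr9:21015690-21015939, both on the plus strand) are shown because they were the markers that rose with EGCG in both depots on day 8 besides Pdgfrb, and that of Ly6c1 (chr15:75048838-75049087, minus strand, the first of 2 start sites) because it had the largest rise with time. Capitals mark matches to the motifs searched on both strands.
F3: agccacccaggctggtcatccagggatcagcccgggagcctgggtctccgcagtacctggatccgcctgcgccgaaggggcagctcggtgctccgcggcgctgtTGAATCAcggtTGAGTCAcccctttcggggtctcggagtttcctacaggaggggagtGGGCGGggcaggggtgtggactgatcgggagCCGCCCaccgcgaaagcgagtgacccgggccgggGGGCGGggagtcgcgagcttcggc
Icam1: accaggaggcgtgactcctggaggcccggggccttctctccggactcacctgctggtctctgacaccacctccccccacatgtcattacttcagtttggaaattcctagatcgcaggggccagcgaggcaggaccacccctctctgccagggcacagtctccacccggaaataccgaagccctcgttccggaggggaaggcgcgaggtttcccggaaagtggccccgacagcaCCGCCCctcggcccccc
Ly6c1: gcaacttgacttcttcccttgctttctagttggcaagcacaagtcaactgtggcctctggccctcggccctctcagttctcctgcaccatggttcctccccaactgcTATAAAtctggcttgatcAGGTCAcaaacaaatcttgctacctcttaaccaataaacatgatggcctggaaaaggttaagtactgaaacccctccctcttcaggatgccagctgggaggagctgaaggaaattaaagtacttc
The F3 window holds 3 matches to the GC box GGGCGG and 2 to the AP-1 motif TGANTCA, the Icam1 window 1 GC box, and the Ly6c1 window 1 TATAAA and 1 nuclear receptor half-site AGGTCA. Among 32851 mouse promoter windows of this length, 32.7% hold GGGCGG, 6.75% hold TGANTCA, 12.4% hold TATAAA and 14.0% hold AGGTCA. The NF-kB consensus GGGRNWYYCC (R is A or G, N any base, W A or T, Y C or T) was found in 3.90% of the windows. The C/EBP palindrome TTGCGCAA was found in 0.164%. Neither had an exact match in the windows of the 7 markers that the promoter set holds. Sites that depart from a pattern were not counted, so variant sites are not excluded. The glucocorticoid receptor half-site AGAACA, found in 16.1%, had 1 match each in Dpp4 and Pi16. A match describes the letters and shows no binding.

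F3 moved in opposite directions on the 2 days in WAT cells. On day 4 it had 311, 291 and 269 FPKM in controls and 79.5, 86.2 and 80.9 FPKM with EGCG. It was 3.63-fold lower with EGCG (log2 change -1.85 ± 0.171, adjusted p = 3.86e-06). On day 8 it had 268, 156 and 191 FPKM in controls and 479.7, 497 and 188 FPKM with EGCG, where the last value becomes 482 FPKM after rescaling. With this value the groups did not overlap, and F3 was higher with EGCG by 1.25 ± 0.171 (adjusted p = 5.13e-05). The 2 control libraries of that fit lay far apart. In BAT cells, F3 had 176, 176 and 173 FPKM in day 4 controls and 169, 161 and 151 FPKM with EGCG. The change did not pass the test (-0.09 ± 0.171, adjusted p = 0.707), although all EGCG libraries lay below all controls of that day. On day 8 the BAT controls had 200.2, 215 and 227 FPKM and the EGCG cells 638, 634 and 633 FPKM, so F3 was 3.06-fold higher with EGCG (1.61 ± 0.171, adjusted p = 3.81e-06). The EGCG effect on day 8 minus that on day 4 was 3.10 ± 0.242 in WAT (adjusted p = 2.31e-06) and 1.70 ± 0.242 in BAT cells (adjusted p = 0.00011). On day 4 the depots differed by 1.76 ± 0.242 (adjusted p = 0.000322).

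Icam1 rose with EGCG in all 4 comparisons. In WAT cells it had 6.21, 7.38 and 8.07 FPKM in controls and 20.2, 20.0 and 25.8 FPKM with EGCG on day 4, and 10.2, 7.60 and 8.77 FPKM against 28.2, 27.4 and 12.2 FPKM on day 8, the last of which becomes 31.2 FPKM after rescaling. BAT cells had 5.51, 5.25 and 6.35 FPKM against 21.7, 22.3 and 24.8 FPKM on day 4 and 3.73, 4.63 and 4.05 FPKM against 18.2, 19.3 and 22.7 FPKM on day 8. The control and EGCG groups did not overlap in either depot on either day. The log2 change was 1.44 ± 0.115 in WAT on day 4 (adjusted p = 1.18e-06), 1.55 ± 0.115 in WAT on day 8 (adjusted p = 3.54e-07), 1.85 ± 0.115 in BAT on day 4 (adjusted p = 1.68e-07) and 1.94 ± 0.115 in BAT on day 8 (adjusted p = 2.42e-08). No difference of the EGCG effect between depots (adjusted p = 0.0843 on day 4 and 0.0818 on day 8) or between days (adjusted p = 0.616 in WAT and 0.681 in BAT) was called for Icam1. Icam1 is also made by endothelial cells, and the endothelial sum was higher with EGCG in each of the 4 comparisons, for example 22.8 to 27.1 FPKM against 55.9 to 61.0 FPKM in BAT cells on day 4. Its part in the Icam1 result was not tested.

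Clec3b (ENSMUSG00000025784.4, chr9:123060064-123066548, plus strand) had the widest range of the 9 tested markers and was lower with EGCG throughout. WAT controls had 34.2, 29.4 and 40.5 FPKM on day 4 and 135, 156 and 167 FPKM on day 8. With EGCG the WAT cells had 1.81, 2.71 and 1.68 FPKM on day 4 and 14.5, 16.4 and 6.06 FPKM on day 8 (15.5 FPKM for the last after rescaling). The EGCG groups were 14.1-fold and 9.41-fold lower, without overlap (log2 change -3.34 ± 0.178, adjusted p = 4.56e-08, and -3.15 ± 0.178, adjusted p = 3.94e-08). BAT controls had 1.46, 2.40 and 1.98 FPKM on day 4 and 18.4, 14.7 and 16.7 FPKM on day 8. BAT cells with EGCG had 0.230, 0.205 and 0.612 FPKM, from 10, 10 and 11 reads, on day 4 and 2.29, 3.06 and 2.46 FPKM on day 8. The change in BAT cells was -1.25 ± 0.178 on day 4 (adjusted p = 0.00012) and -2.26 ± 0.178 on day 8 (adjusted p = 2.74e-07). On day 4 the effect of EGCG differed between depots by 2.09 ± 0.252 (adjusted p = 0.000136), but at these low levels the scale matters: on the recovered reads, with voom, the difference was 0.77 (adjusted p = 0.523). Likewise, the EGCG effect on day 8 minus that on day 4 in BAT cells was -1.01 ± 0.252 (adjusted p = 0.00506) but 0.04 with a pseudocount of 0.1 and 0.43 with voom. Clec3b rose from day 4 to day 8 in every arm, from 1.58 ± 0.178 in BAT cells with EGCG (adjusted p = 1.31e-05) to 2.59 ± 0.178 in BAT controls (adjusted p = 1.13e-07). The order of the arms also depends on the scale. As a plain ratio of means, the rise was larger in BAT cells with EGCG (0.217 to 2.67 FPKM) than in BAT controls (1.93 to 16.6 FPKM).

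The question of the EGCG comparison is which markers change when differentiation proceeds with the catechin. In WAT cells on day 4, 3 of the 9 tested markers were higher (Ly6a, Ly6c1 and Icam1) and 4 lower (Pi16, Cd34, F3 and Clec3b), where 34.4% of all tested genes were called higher and 19.3% lower. In WAT cells on day 8, 3 were higher (Pdgfrb, F3 and Icam1) and 6 lower (Pdgfra, Pi16, Cd34, Ly6a, Ly6c1 and Clec3b), with 44.7% and 18.9% of all genes called. In BAT cells on day 4, 2 were higher (Pdgfrb and Icam1) and 1 lower (Clec3b), with 27.9% and 20.6% of all genes called. In BAT cells on day 8, 3 were higher (Pdgfrb, F3 and Icam1) and 5 lower (Pi16, Cd34, Ly6a, Ly6c1 and Clec3b), with 46.5% and 26.1% of all genes called. Icam1 was called higher and Clec3b lower in all 4 comparisons. In replicate 3, kept out of these tests, all called markers changed in the same direction in WAT day 4, BAT day 4 and BAT day 8, and 7 of 9 did so in WAT day 8 as deposited and 9 of 9 after rescaling.

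Deposited FPKM values carry their own scaling. Genes higher with EGCG made up 64.1% of all calls in WAT cells on day 4, and 47.0% once the libraries were scaled by median ratios. On day 8 the same scaling gave 50.6% in place of 70.3% in WAT and 51.0% in place of 64.0% in BAT cells. The median log2 change of all genes moved by -0.17 in WAT and -0.16 in BAT cells on day 8. No called marker changed direction in any comparison under this scaling or under quantile normalization.

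**Figure D2:**
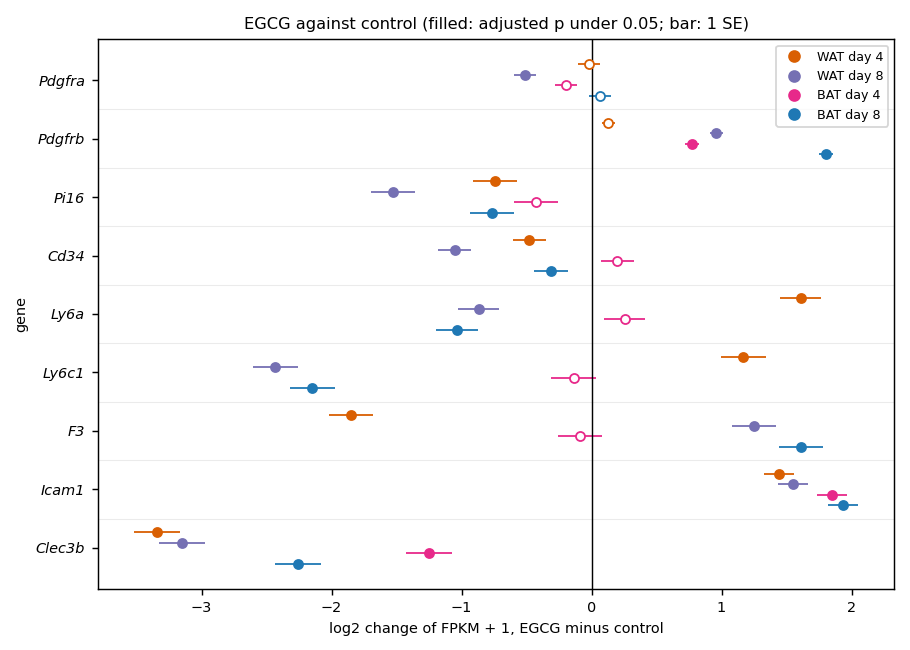
Log2 change of FPKM + 1 with EGCG against control for the 9 tested markers (rows), in WAT and BAT cells on day 4 and day 8 (colours); points are estimates from replicates 1 and 2, bars are 1 SE, and filled points passed an adjusted p of 0.05. Icam1 lies right of 0 and Clec3b left of 0 in all 4 comparisons, while Ly6a, Ly6c1 and F3 lie on opposite sides on the 2 days in WAT cells.

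From day 4 to day 8, in WAT controls, 7 markers were higher (Pdgfra, Pi16, Cd34, Ly6a, Ly6c1, Icam1 and Clec3b) and F3 was lower, where 27.7% of all tested genes were called higher and 33.2% lower. The calls of Icam1 (log2 change 0.34 ± 0.115, adjusted p = 0.0234) and F3 (-0.55 ± 0.171, adjusted p = 0.0146) were the weakest: without day 4 control replicate 1 the adjusted p was 0.179 for Icam1 and 0.0741 for F3, and without day 8 control replicate 1 it was 0.25 for Icam1. In WAT cells with EGCG, 8 markers were higher and none was lower (31.8% and 27.7% of all genes). On the scale of log2(FPKM + 1), F3 had the largest rise of them (2.55 ± 0.171, adjusted p = 2.03e-07), from 82.9 to 489 FPKM. The plain ratio was larger for the lower Clec3b, from 2.26 to 15.4 FPKM, whose rise the + 1 makes smaller. At an unadjusted p under 0.05 the ninth, Pdgfra, was not called either. Replicate 3 moved in the same direction for 3 of these 8 as deposited and for 8 of 8 after rescaling. In BAT controls, 4 were higher (Cd34, Ly6a, Ly6c1 and Clec3b) and 3 lower (Pdgfra, Pdgfrb and Icam1), against 28.7% and 40.4% of all genes. Median-ratio scaling moved the median of all genes by 0.14 and the share of higher calls from 41.5% to 55.3% in this comparison, and Icam1 and Pdgfrb were then not called. In BAT cells with EGCG, 3 were higher (Pdgfrb, F3 and Clec3b) and 2 lower (Pi16 and Ly6a), against 29.7% and 28.2%. Ly6c1 rose in BAT controls by 1.97 ± 0.17 (adjusted p = 8.00e-07), whereas in BAT cells with EGCG it had 13.2 ± 3.52 FPKM on day 4 and 12.7 ± 0.904 FPKM on day 8 (-0.04 ± 0.17, adjusted p = 0.877).

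**Figure D3:**
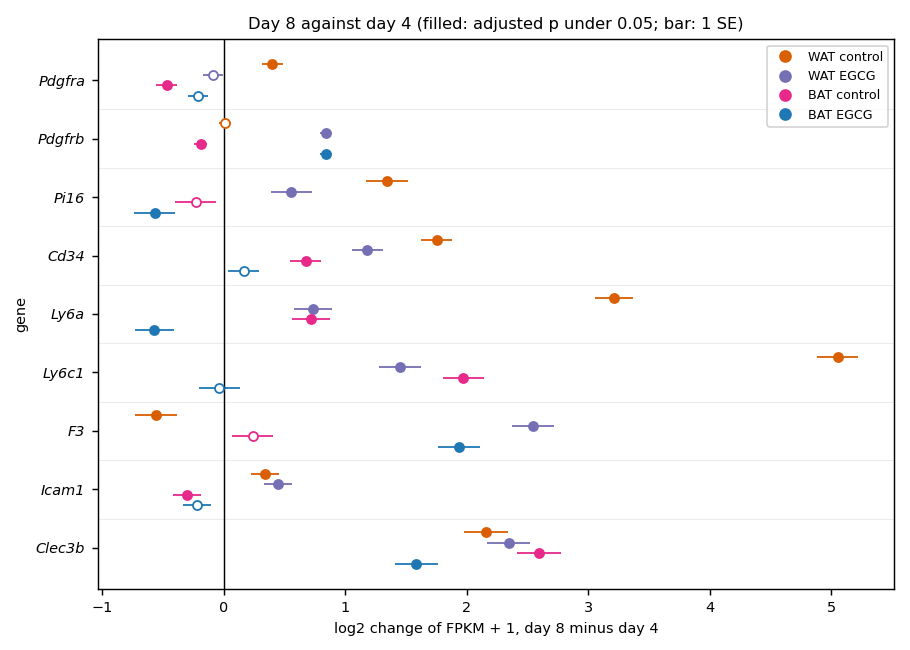
Log2 change of FPKM + 1 from day 4 to day 8 for the 9 tested markers (rows), in control and EGCG cells of both depots (colours); points are estimates from replicates 1 and 2, bars are 1 SE, and filled points passed an adjusted p of 0.05. Ly6c1 in WAT controls lies farthest to the right, and F3 rose with EGCG in both depots.

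Between the depots, BAT controls on day 4 had 2 markers higher than WAT controls (Ly6a and Ly6c1) and 4 lower (Pdgfra, Cd34, F3 and Clec3b), where 41.4% of all tested genes were called higher and 14.4% lower. Under median-ratio scaling, 50.6% of the called genes were higher in BAT in place of 74.3%, the median of all genes moved by -0.14, and Ly6c1 was not called (adjusted p = 0.0561). By day 8 none of the markers was called higher in BAT controls and 8 were lower, against 31.6% and 22% of all genes. F3 was the marker not called on that day (log2 difference 0.02 ± 0.171, adjusted p = 0.937), and its unadjusted p was not under 0.05. Its value rested on the WAT library used, with -0.37 (adjusted p = 0.000585) without WAT control replicate 2 and 0.41 (adjusted p = 0.000341) without WAT control replicate 1. With EGCG, BAT cells on day 4 had 2 markers higher (Pdgfrb and F3) and 5 lower (Pdgfra, Cd34, Ly6a, Ly6c1 and Clec3b), against 32.9% and 15.8% of all genes (67.6% of called genes higher, 54.8% under median-ratio scaling). On day 8 with EGCG, Pdgfrb was higher in BAT cells and 7 markers were lower, against 24.4% and 14% (63.6% of called genes higher, 53.4% under quantile normalization), and replicate 3 changed in the same direction for 6 of these 8 as deposited and for 8 of 8 after rescaling. Pdgfra, Cd34 and Clec3b were lower in BAT than in WAT cells in all 4 comparisons. Ly6a and Ly6c1 were higher in BAT controls on day 4 (by 0.80 ± 0.16, adjusted p = 0.00133, and 0.59 ± 0.17, adjusted p = 0.0117) and lower in the other 3 comparisons. The Ly6c1 call on day 4 was lost without BAT control replicate 1 (adjusted p = 0.103).

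**Figure D4:**
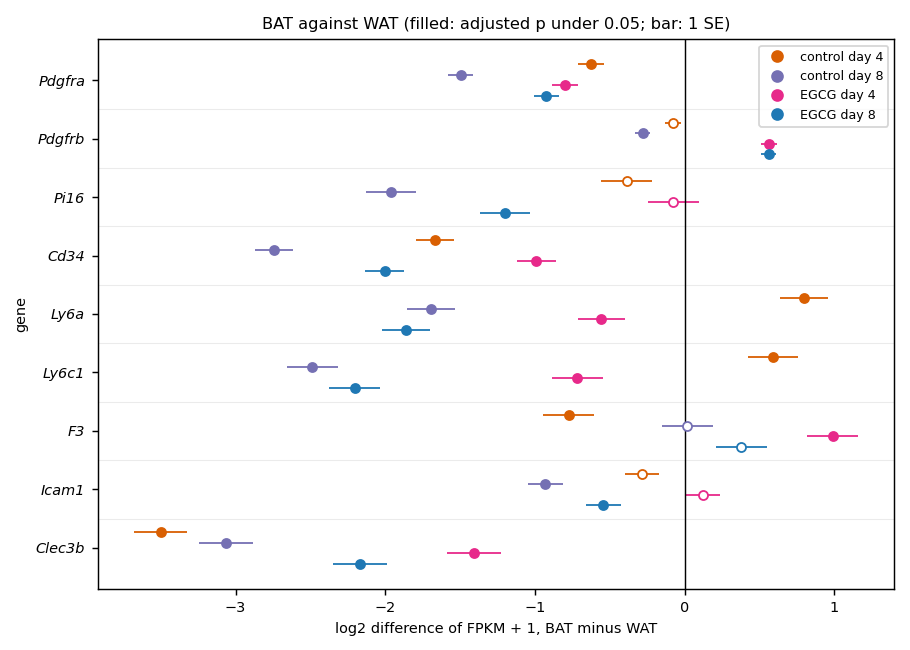
Log2 difference of FPKM + 1, BAT minus WAT, for the 9 tested markers (rows) in control and EGCG cells on day 4 and day 8 (colours); points are estimates from replicates 1 and 2, bars are 1 SE, and filled points passed an adjusted p of 0.05. Pdgfra, Cd34 and Clec3b lie left of 0 in all 4 comparisons, and Pdgfrb lies right of 0 in the EGCG cells.

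The effect of EGCG was also compared between depots and between days with interaction terms. Between depots, 6 markers differed on day 4 and 5 on day 8, where 28.1% and 39.2% of all tested genes were called in either direction. The day 8 count was 3 with a pseudocount of 0.1, and without 1 library it ran from 3 (BAT EGCG replicate 2 left out) to 7 (WAT control replicate 2 left out). Between days, 7 markers differed in WAT and 6 in BAT cells, against 49.4% and 55.4% of all genes. Positive terms made up 42.7% of the calls between depots on day 4, 60.4% under median-ratio scaling, and 62.8% and 46.8% of the calls between days in BAT cells. Pdgfrb differed in all 4 of these tests, with a larger rise in BAT than in WAT cells and a larger rise on day 8 than on day 4 (0.83 ± 0.073 in WAT, adjusted p = 5.15e-06, and 1.03 ± 0.073 in BAT, adjusted p = 6.33e-07). Icam1 differed in none of them, with a limma adjusted p of 0.0818 to 0.681.

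The other genes of the progenitor states were counted by list. Of 12 genes of interstitial progenitors, 10 were tested. With EGCG, 7 were higher and 0 lower in WAT cells on day 4, and 7 and 1 on day 8. In BAT cells, 9 were higher and 0 lower on day 4, and 7 and 2 on day 8. Of all tested genes, 34.4%, 44.7%, 27.9% and 46.5% were called higher in these comparisons, and 19.3%, 18.9%, 20.6% and 26.1% lower. The list's median log2 changes were 0.46, 0.71, 0.65 and 0.66, against 0.09, 0.17, 0.03 and 0.17 for all tested genes. Anxa3, an annexin that marks these cells, rose in all 4, from 25.7 ± 1.24 to 164 ± 11.4 FPKM in BAT cells on day 8 (2.63 ± 0.0728, adjusted p = 5.19e-11). Has1, a hyaluronan synthase, had 9.49 ± 1.64 FPKM in WAT day 4 controls and 36.5 ± 4.63 FPKM with EGCG (1.84 ± 0.132, adjusted p = 4.99e-07). Smpd3 of this list had a lower mean with EGCG in BAT cells on day 8 (6.68 ± 0.0855 FPKM in controls against 1.95 ± 0.182 FPKM). On day 4 its mean in BAT cells was higher with EGCG (0.649 ± 0.168 against 2.12 ± 0.228 FPKM). Pi16 and Dpp4, which mark the same cells, did not follow 1 direction: Pi16 was lower with EGCG in 3 of 4 comparisons, while Dpp4 had more reads with EGCG in WAT cells on day 8.

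Genes of committed preadipocytes and regulatory stromal cells, 14 in all, were mostly lower with EGCG: 8 lower and 2 higher in WAT cells on day 4, 9 and 2 on day 8, 7 and 2 in BAT cells on day 4, and 11 and 2 on day 8. The medians were -0.52, -0.96, -0.58 and -1.13, where those of all tested genes were 0.09, 0.17, 0.03 and 0.17 and the shares of all genes called lower were 19.3%, 18.9%, 20.6% and 26.1%. Dlk1, the preadipocyte factor that inhibits adipogenesis, had 51.9 ± 0.426 FPKM in WAT day 4 controls and 6.11 ± 2.2 FPKM with EGCG (log2 change -2.93 ± 0.195, adjusted p = 2.63e-07). Apoe, an apolipoprotein, fell from 806 ± 31.4 to 43.5 ± 4.72 FPKM in BAT cells on day 8 (-4.18 ± 0.143, adjusted p = 2.59e-10). Icam1, a marker of the committed preadipocytes, was higher in all 4 comparisons. Within the list, the means of Sdc1 and Cxcl14 were also higher in all 4. Sdc1 had 24.7 ± 0.704 FPKM in BAT day 8 controls and 56.0 ± 2.02 FPKM with EGCG. Cxcl14 had 61.1 ± 11.1 and 103 ± 5.09 FPKM in BAT cells on day 4, but only 54.3 ± 2.46 and 58.0 ± 2.83 FPKM in WAT cells on that day. F3, a marker of the regulatory cells, was lower with EGCG in WAT cells on day 4 and higher in both depots on day 8. Of 14 pan-stromal genes, 8 or 9 were higher and 4 or 5 lower in each EGCG comparison. Of all tested genes, 27.9% to 46.5% were called higher and 18.9% to 26.1% lower. The list's medians were 0.33, 0.56, 0.76 and 0.56. Cd44, the hyaluronan receptor, had 12.1 ± 0.882 FPKM in BAT day 8 controls and 81.5 ± 1.88 FPKM with EGCG (2.65 ± 0.127, adjusted p = 3.72e-09), and Nt5e, the ecto-nucleotidase CD73, had 44.7 ± 1.24 and 0.240 ± 0.019 FPKM (-5.20 ± 0.214, adjusted p = 1.08e-09).

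The markers of mature adipocytes were read beside these lists. All 12 were lower with EGCG in each of the 4 comparisons, where 18.9% to 26.1% of all tested genes were called lower. Their median log2 changes were -2.54, -4.74, -2.18 and -4.63 in the order above. In WAT cells on day 8 their sum was 6563 to 7455 FPKM in controls and 667 to 729 FPKM with EGCG. Adipoq, the adipokine adiponectin, had 121 ± 15.1 FPKM in WAT day 4 controls and 5.17 ± 0.195 FPKM with EGCG (-4.30 ± 0.0948, adjusted p = 1.58e-10). Macrophage and leukocyte markers moved with the day: 7 of 8 tested were higher with EGCG in WAT and 5 in BAT cells on day 4, and 8 and 6 were lower on day 8. Of all tested genes, 34.4% in WAT and 27.9% in BAT cells were called higher on day 4, and 18.9% and 26.1% lower on day 8. The part of adipocytes and macrophages in the marker values was not tested.

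The genes whose levels followed each marker most closely were found by the correlation of log2(FPKM + 1) over the 16 libraries, which share groups, so that r describes the pattern only. Ly6c1 was closest to Ms4a4d (r = 0.97), Aldh3b1 (0.97) and Ly6a (0.93), and Ly6a was closest to Ly6c1 (0.93), Aldh3b1 (0.93) and Ms4a4d (0.92). Pdgfrb was closest to Snx12 (0.99), Cald1 (0.98) and Farp1 (0.98), and Pdgfra to Cyp4b1 (0.96), Gabra3 (0.95) and Dpt (0.95). Pdgfra and Pdgfrb themselves had r = -0.27. Icam1 followed Vasn (0.99), Ddr2 (0.98) and Nipal1 (0.97), and Clec3b followed Ogn (0.98), Mndal (0.97) and Mfap4 (0.96). F3 was closest to Adcy7 (0.95), Actg1 (0.94) and Fhl2 (0.94), Cd34 to Mmp27 (0.96), Gm12575 (0.95) and Fbln7 (0.95), and Pi16 to Reg1 (0.95), Mark1 (0.93) and Snhg11 (0.91). Among pairs of markers, Ly6a with Ly6c1 (0.93) and Cd34 with Clec3b (0.85) were the most alike.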

How the data were processed

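RNA of 24 libraries was profiled by sequencing. The authors deposited FPKM values and gene lengths in 2 tables, replicates 1 and 2 in one and replicate 3 in the other, with reads scaled per library to gene length and to all reads assigned to genes. FastQC 0.11.9, HISAT2 2.2.0 and HTSeq 0.11 and the build mm9 (NCBIM37) are named in the submitters' processing notes. Whether counting used the strand, and how reads that match several genes were treated, is not given in the sources used here. Multiplying FPKM by length gave whole reads for 100% of the values within 0.01 reads, and the totals of these reads are the depths given. Lengths and coordinates matched GENCODE gene models of NCBIM37, and promoters came from RefSeq on GRCm38.p6, which held 7 of the 10 markers.

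Genes with at least 1 FPKM in at least 2 of the 16 libraries of replicates 1 and 2 were fitted with limma 3.58.1 (R 4.3.3, empirical Bayes with trend) on log2(FPKM + 1). The 8 groups shared 1 spread with 8 residual degrees of freedom, and p-values were adjusted by Benjamini-Hochberg over all genes within each of 16 comparisons, with a threshold of 0.05. The + 1 makes fold changes of low genes too small, and plain ratios of FPKM means are given beside some of them. An SD is over n = 2 libraries, replicates 1 and 2, and an SE comes from the fit. Replicate 3 was left out of the tests because it was deposited in another table. Markers are named throughout. From each list, up to 4 genes with the highest or lowest change among called genes with a mean of at least 5 FPKM in 1 group are named, and for each marker the 3 genes with the highest Pearson r. Pecam1, Cdh5, Acta2, Rgs5, Lyz2, Upk3b and Ly6g are named as defining or most abundant members of their lists. Kcnj8, Abcc9 and Cldn5 are named outside that rule because they moved against the sum of their list. Smpd3 and Cxcl14 are named as genes whose means moved against most of their list. The markers and lists were chosen with earlier results of these data known. Alternatives were a pseudocount of 0.1, no filter, median-ratio and quantile scaling, a replicate block, 3 replicates, groups compared alone, voom on recovered reads and leaving out each library.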

Additional observations from a re-analysis of the deposited data

Results flagged for a closer look

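The effect of EGCG differed between depots or between days, by interaction terms of the same limma model, in 24 cases with an adjusted p under 0.05. On day 4 the log2 effect in BAT minus that in WAT cells was 0.64 for Pdgfrb, 0.68 for Cd34, -1.35 for Ly6a, -1.31 for Ly6c1, 1.76 for F3 and 2.09 for Clec3b. On day 8 this difference was 0.57 for Pdgfra, 0.84 for Pdgfrb, 0.76 for Pi16, 0.74 for Cd34 and 0.90 for Clec3b. The Pi16 difference turned to -0.28 with voom. The Clec3b difference on day 4 was smaller with voom and was not called there.

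In WAT cells the effect on day 8 minus that on day 4 was -0.49 for Pdgfra, 0.83 for Pdgfrb, -0.79 for Pi16, -0.57 for Cd34, -2.48 for Ly6a, -3.60 for Ly6c1 and 3.10 for F3. In BAT cells it was 1.03 for Pdgfrb, -0.51 for Cd34, -1.29 for Ly6a, -2.01 for Ly6c1, 1.70 for F3 and -1.01 for Clec3b, and the Clec3b value turned to 0.0446 with a pseudocount of 0.1 and to 0.43 with voom. Pdgfrb, Cd34, Ly6a, Ly6c1 and F3 thus differed between days in both depots, and in the same direction. In WAT cells the effect itself turned from higher to lower for Ly6a and Ly6c1 and from lower to higher for F3, and each of these 6 effects passed the test on its own day.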

How the results depend on the processing

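Of 144 log2 changes (9 markers in 16 comparisons), 130 to 144 kept their direction and their side of the threshold under the other pseudocount, no filter, median-ratio or quantile scaling, the replicate block, groups compared alone and voom, and at most 2 turned direction. With 1 library left out, 669 values were unchanged in this sense, 9 newly passed, 41 no longer passed and 1 turned direction. No pattern shared by replicate number was seen: the difference between replicates 1 and 2 correlated by -0.079 to 0.081 between groups. The replicate block changed none of the 144 calls. The labels do not say what a replicate number marks, and these values cannot show whether equal numbers shared a preparation. With replicates 1 to 3 from both tables and a replicate block, all libraries included, fewer markers were called: 5 in place of 8 from day 4 to day 8 in WAT controls, 4 in place of 8 in WAT cells with EGCG, 4 in place of 7 in BAT controls, 3 in place of 6 and 4 in place of 7 between depots on day 4 (control and EGCG), and 2 in place of 6 for the EGCG effect between depots on day 4. Icam1 turned to -0.044 there (day 8 against day 4, WAT EGCG). When the library that stood apart, or its 5 genes, was left out of that fit, 6 markers in place of 3 were called for EGCG in BAT cells on day 4. In either of these fits 131 of the 144 changes were as with replicates 1 and 2, 13 newly passed and 0 were lost or turned, against 28 lost and 1 turned with that library. For the EGCG effect between depots on day 8, 3 in place of 5 were called with a pseudocount of 0.1, and 3 to 7 with 1 library left out (3 without BAT day 8 EGCG replicate 2, 7 without WAT day 8 control replicate 2). From day 4 to day 8 in BAT cells with EGCG, 3 to 5 were called with 1 library left out (3 without BAT day 4 EGCG replicate 2). Direction turned for Pi16 between depots on day 8 (-0.28 with voom in both gene sets), for Clec3b between days in BAT cells (0.0446 with the pseudocount of 0.1 and 0.43 with voom in both gene sets), and for F3 between depots in day 8 controls, which ran from -0.37 to 0.41 with 1 library left out. The voom set of genes with at least 10 reads and the omission of the 5 genes were chosen after seeing the data. The cause was not tested. With 3 reads as the floor, Dpp4 in BAT cells and Clec3b in BAT day 4 EGCG cells lay near what depth allows.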
